A study of Homo sapiens with 4 samples.

Results

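The genes described here are NDUFAB1, the mitochondrial acyl carrier protein, and 8 genes that share its pathways: MCAT, OXSM and MECR of mitochondrial fatty acid synthesis, LIAS and LIPT1 of lipoate synthesis and transfer, and NFS1, LYRM4 and ISCU of iron-sulfur cluster assembly. They were taken by gene symbol, and all 9 were found among 16504 symbols. The set was chosen by the measured FPKM of NDUFAB1, which was low in the knockdown, so the knockdown values of the 9 genes are given as a description and carry no test.

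In mitochondria, fatty acids are built on the acyl carrier protein, which holds the growing chain on a phosphopantetheine arm. An intermediate of this synthesis, octanoate, is the precursor of lipoate, the cofactor of pyruvate dehydrogenase and related complexes. The same carrier protein is a subunit of respiratory complex I and binds LYR motif proteins, among them LYRM4 in the cysteine desulfurase complex that supplies sulfur for iron-sulfur clusters. Lipoyl synthase itself carries such clusters, so these pathways meet at the carrier protein and at LIAS.

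RNA-seq was performed on 4 libraries labelled NB4, which is an established line from human acute promyelocytic leukemia. By their labels, 2 libraries had CEBPG presence (control) and 2 had CEBPG knockdown. CEBPG encodes C/EBPγ, a bZIP factor that pairs with other C/EBP and ATF proteins on DNA. In the study methods, short hairpin RNAs were delivered in a lentiviral vector, stable cells were selected with puromycin, and the comparison was made with shRNA control cells. The column names NC and CEBPG3 were read as control hairpin and the third CEBPG hairpin, which is an assumption. With 1 hairpin, the loss of CEBPG and any other action of that hairpin cannot be told apart. No source states that the libraries came from separate cultures, so p-values measure only the spread between these libraries, which may be technical. An exact permutation test of 2 against 2 libraries cannot give a 2-sided p below 0.333.

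Expression was deposited as FPKM (fragments divided by exon length and by the mapped fragments of the library), a level per length, so that genes can be compared. Read depth was unknown. FPKM values of all genes summed to between 345340 and 366139 per library. CEBPG was at 17.1 and 18.1 FPKM in the controls against 6.91 and 7.96 FPKM in the knockdowns (log2 fold change -1.14, standard error 0.082, limma adjusted p = 0.000836). Of 15 erythroid markers, 12 were over 10 FPKM in every library, with summed levels of 8025 to 8491 FPKM in the control and 8927 to 9490 FPKM in the knockdowns, and 2 of them were called higher and 3 lower. Of 16 myeloid markers, MPO, ELANE and CTSG, granule genes of promyelocytes, were not analysed here. Of the other 13, 8 were below 1 FPKM in every library, 2 (LYZ and SPI1) were over 10 FPKM in every library and none was at 0 in all 4 libraries. LYZ, the lysozyme gene, was called lower (-0.30, limma adjusted p = 0.0289), while the other 3 tested myeloid markers had values of 0.65 (CD33), 0.15 (SPI1) and 0.070 (FUT4) and did not pass (limma adjusted p = 0.0603, 0.132 and 0.587). The summed levels of the 13 myeloid markers analysed were 50.9 and 51.0 FPKM in the control and 52.7 and 53.8 FPKM in the knockdowns. Of 5 lymphoid markers analysed, 4 were below 1 FPKM in every library. CD3D, a CD3 subunit of the T cell receptor complex, rose from 32.3 and 33.3 FPKM to 66.95 and 56.3 FPKM (0.88, limma adjusted p = 0.0018). These marker levels go against the promyelocytic label, and their part in the values below was not tested. In bulk RNA, fewer cells of a type and less RNA per cell cannot be told apart.

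NDUFAB1 was at 116 and 118 FPKM in the controls against 40.6 and 40.1 FPKM in the knockdowns. Each knockdown library lay far below each control library, and the replicates of each group were close together. The mean was 117 ± 1.39 FPKM (SD, n = 2) in the control and 40.4 ± 0.293 FPKM (SD, n = 2) in the knockdown, so that 34.4% of the control level remained. On the log2(FPKM + 1) scale the difference was -1.52 with a standard error of 0.054. In all, 7 of 10968 tested genes, NDUFAB1 among them, had a log2 fold change this low or lower. The gene was listed as the single transcript NM_005003, so no division of reads between transcripts enters this value. A processed pseudogene, NDUFAB1P1, is annotated, and reads shared with it would make the level uncertain.

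None of the other 8 genes showed a change of this kind. Their log2 fold changes ran from -0.16 for LIPT1 to 0.098 for ISCU, with standard errors of 0.058 to 0.116. A gene was called when its adjusted p over all tested genes was under 0.05 in limma, and 20.9% of all tested genes were called. Of the 9 genes 1, NDUFAB1, met that criterion, which restates how the set was chosen, and nothing is read from the count. The groups did not overlap in 3 of the 9 genes, NDUFAB1 and LIAS lower and ISCU higher in the knockdown, against 64.8% of all tested genes, where 30.5% were lower and 34.3% higher without overlap. The median log2 fold change was -0.037 over the 9 genes and -0.019 over the other 8, beside 0.015 over all tested genes.

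**Figure D1:**
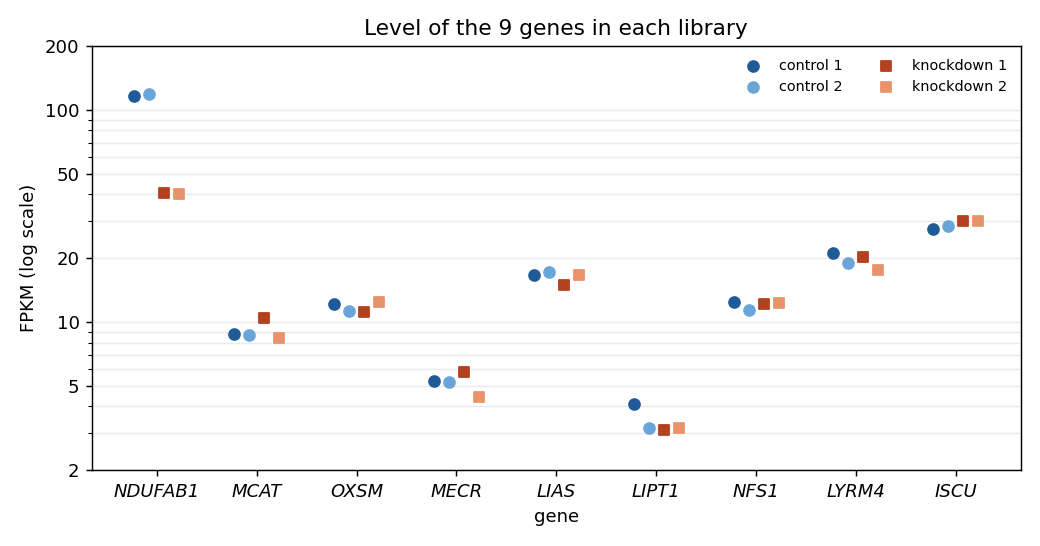
FPKM (log axis) of the 9 genes, with circles for the 2 control libraries and squares for the 2 knockdown libraries. NDUFAB1 goes from 116 and 118 FPKM to 40.6 and 40.1 FPKM, while the points of the other genes lie close together between 3.11 and 30.0 FPKM.

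NDUFAB1 spans chr16:23581014-23596316, minus strand (hg38, GENCODE 44). Its promoter is shown because the knocked-down protein is a transcription factor and the libraries of NDUFAB1 stood furthest apart. The 250 bases before its RefSeq start, chr16:23596317-23596566 on the minus strand (hg38), were read 5′ to 3′, and capitals would mark a motif match.
NDUFAB1: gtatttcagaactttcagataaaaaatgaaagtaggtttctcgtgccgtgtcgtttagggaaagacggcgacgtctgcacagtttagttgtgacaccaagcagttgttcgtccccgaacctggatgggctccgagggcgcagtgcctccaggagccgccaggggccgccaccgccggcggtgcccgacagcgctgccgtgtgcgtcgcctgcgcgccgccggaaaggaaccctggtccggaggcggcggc

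The motifs searched on both strands were the C/EBP palindrome TTGCGCAA, the C/EBP half-site pair TTGCNNAA (which contains the palindrome), the C/EBP-ATF composite TGATGNAA, the CCAAT box CCAAT, and the NRF1 motif, which reads GCGCA, any base, then GCGC. NRF1 is a known activator of nuclear genes for respiration. Windows ran from 250 bases before to 50 after each RefSeq start (GRCh38.p14), and 8 of the 9 genes had a window, OXSM being the exception. Among 35116 windows of all genes, 0.151% held the palindrome, 10.5% the half-site pair, 3.62% the composite, 34.6% the CCAAT box and 5.78% the NRF1 motif. The window of NDUFAB1 held none of these letters, and neither did those of MCAT, LIPT1 and NFS1. This says nothing of sites outside the window or of the binding of a factor.

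Of these 8 genes, LYRM4 had a composite match, LIAS a CCAAT box and MECR and ISCU an NRF1 match. The composite match of LYRM4 began at position -204 from its start, at a place that is an exon of FARS2, the gene for mitochondrial phenylalanyl-tRNA synthetase on the opposite strand. It is shown because it was the only composite or C/EBP match among the 8 windows, in a gene with overlapping groups. The 28 bases at chr6:5261137-5261164 on the minus strand (hg38) have the match in capitals.
LYRM4: aggctctccgTGATGCAActgcacgtcc

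The NRF1 matches of MECR and ISCU are shown as the motif that 2 members shared. The MECR stretch is chr1:29230943-29231184 on the minus strand and the ISCU stretch chr12:108562346-108562581 on the plus strand (both hg38), each ending before the first annotated exon base, with the NRF1 match in capitals. ISCU held another match 7 bases after its start, which is not printed.
MECR: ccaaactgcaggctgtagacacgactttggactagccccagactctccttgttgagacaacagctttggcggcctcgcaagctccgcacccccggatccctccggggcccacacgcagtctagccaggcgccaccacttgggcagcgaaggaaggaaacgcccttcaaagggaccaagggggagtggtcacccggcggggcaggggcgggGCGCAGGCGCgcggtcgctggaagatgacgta
ISCU: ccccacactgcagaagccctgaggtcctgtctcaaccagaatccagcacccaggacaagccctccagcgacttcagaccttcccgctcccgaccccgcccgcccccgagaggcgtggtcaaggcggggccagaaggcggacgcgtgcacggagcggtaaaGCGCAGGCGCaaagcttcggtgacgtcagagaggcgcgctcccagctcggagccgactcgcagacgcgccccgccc

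The enzymes that load and extend the carrier protein were at lower levels than the carrier itself. In hg38 they span chr22:43132209-43143398 (MCAT, minus strand), chr3:25782917-25794534 (OXSM, plus strand) and chr1:29192657-29230942 (MECR, minus strand). MCAT, which transfers malonyl groups to the carrier protein, was at 8.76 and 8.65 FPKM in the controls against 10.4 and 8.41 FPKM in the knockdowns. Its groups overlapped, and the spread was wider in the knockdown. OXSM, the synthase that extends the chain, was at 12.2 and 11.3 FPKM in the controls against 11.1 and 12.4 FPKM in the knockdowns, again with overlapping groups. MECR, the enoyl reductase of the last step of each cycle, was at 5.25 and 5.18 FPKM in the controls against 5.79 and 4.41 FPKM in the knockdowns. Knockdown 1 was the highest and knockdown 2 the lowest of the 4 libraries for MECR. For MCAT and MECR single libraries set the sign. Without knockdown 1 their log2 fold changes were -0.045 and -0.20, and without knockdown 2 they were 0.24 and 0.13.

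LIAS spans chr4:39459004-39485109 and LIPT1 chr2:99154955-99163157, both on the plus strand. LIAS, the lipoyl synthase, was at 16.6 and 17.1 FPKM in the controls against 14.9 and 16.6 FPKM in the knockdowns. Knockdown 2 lay just under control 1, giving a log2 fold change of -0.094 (standard error 0.072). It was -0.17 without knockdown 2 and -0.023 without knockdown 1. LIPT1, the transferase that passes lipoyl groups on to their target enzymes, was at 4.11 and 3.17 FPKM in the controls against 3.11 and 3.17 FPKM in the knockdowns. Control 1 stood above the other libraries, and without it the log2 fold change of LIPT1 was -0.0100 in place of -0.16.

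NFS1 spans chr20:35668052-35699355 and LYRM4 chr6:5103629-5260950 on the minus strand, and ISCU spans chr12:108562582-108569368 on the plus strand. NFS1, the cysteine desulfurase that provides sulfur, was at 12.5 and 11.4 FPKM in the controls against 12.1 and 12.3 FPKM in the knockdowns. LYRM4, its LYR motif partner that binds the carrier protein, was at 21.2 and 18.9 FPKM in the controls against 20.1 and 17.6 FPKM in the knockdowns. Groups overlapped for both genes. ISCU, the scaffold on which clusters are built, was at 27.4 and 28.5 FPKM in the controls against 29.9 and 30.0 FPKM in the knockdowns. Both knockdown libraries of ISCU were above both control libraries, by a log2 fold change of 0.098 with a standard error of 0.058.

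The order of the mean levels was the same in both groups: NDUFAB1, ISCU, LYRM4, LIAS, NFS1, OXSM, MCAT, MECR and LIPT1. Only the neighbours NFS1 and OXSM had libraries that overlapped within a group, in the control as well as in the knockdown. What differed was the distance between the carrier protein and the rest. The ratio of NDUFAB1 to ISCU within a library, which does not depend on library scaling, was 4.26 and 4.16 in the controls against 1.36 and 1.34 in the knockdowns. The ratio of ISCU to NFS1 was 2.20 and 2.50 in the controls against 2.47 and 2.43 in the knockdowns, with overlap.

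Of the 9 genes, all but NDUFAB1 were sums of several transcript entries. Of all 30 entries, 6 were lower and 5 higher in the knockdown without overlap, beside 22.2% lower and 24.5% higher (46.8% together) among all 28918 entries, so non-overlapping entries were no more frequent in these genes than in the table. The entries below are given as values only. The ISCU entry NM_213595, the mitochondrial form, was at 22.1 and 24.1 FPKM in the controls against 26.6 and 27.1 FPKM in the knockdowns. The entry NM_014301, the form that lacks the mitochondrial targeting sequence, was at 4.25 and 3.87 FPKM in the controls against 2.76 and 1.75 FPKM in the knockdowns. The share of NM_014301 in ISCU was thus 15.5% and 13.6% in the controls against 9.24% and 5.82% in the knockdowns.

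For LIPT1, the entry NM_015929 was at 2.71 and 2.15 FPKM in the controls against 1.28 and 1.06 FPKM in the knockdowns. The noncoding entry NR_037935 was listed at 0 in control 1, at 0.535 FPKM in control 2, and at 1.28 and 1.38 FPKM in the knockdowns. These opposite differences nearly cancelled in the gene sum. NM_015929, a coding entry among several, made up 66.0% and 67.8% of LIPT1 in the controls against 41.3% and 33.3% in the knockdowns. The coding entry NM_145197 made up 22.5% and 0.944% in the controls against 1.87% and 0.914% in the knockdowns. For the coding entry NM_001204830 the shares were 0% and 11.6% in the controls against 6.96% and 17.6% in the knockdowns. For MCAT, NM_173467 was at 7.25 and 6.73 FPKM in the controls against 9.10 and 7.33 FPKM in the knockdowns. Its other coding entry, NM_014507, was at 1.09 and 1.65 FPKM in the controls against 1.06 FPKM in both knockdowns. How reads were divided between overlapping transcripts is not given in the sources used here, so these low entries are uncertain. The processed pseudogenes ISCUP1 and LIPT1P1 are annotated too, and reads shared with them would add to this uncertainty for ISCU and LIPT1. One entry held most of the signal for NFS1 (NM_021100, at least 97.96% in each library), OXSM (NM_017897, at least 89.8%), LYRM4 (NM_020408, at least 82.1%) and LIAS (NM_006859, at least 73.5%), and in these 4 entries the groups overlapped.

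**Figure D2:**
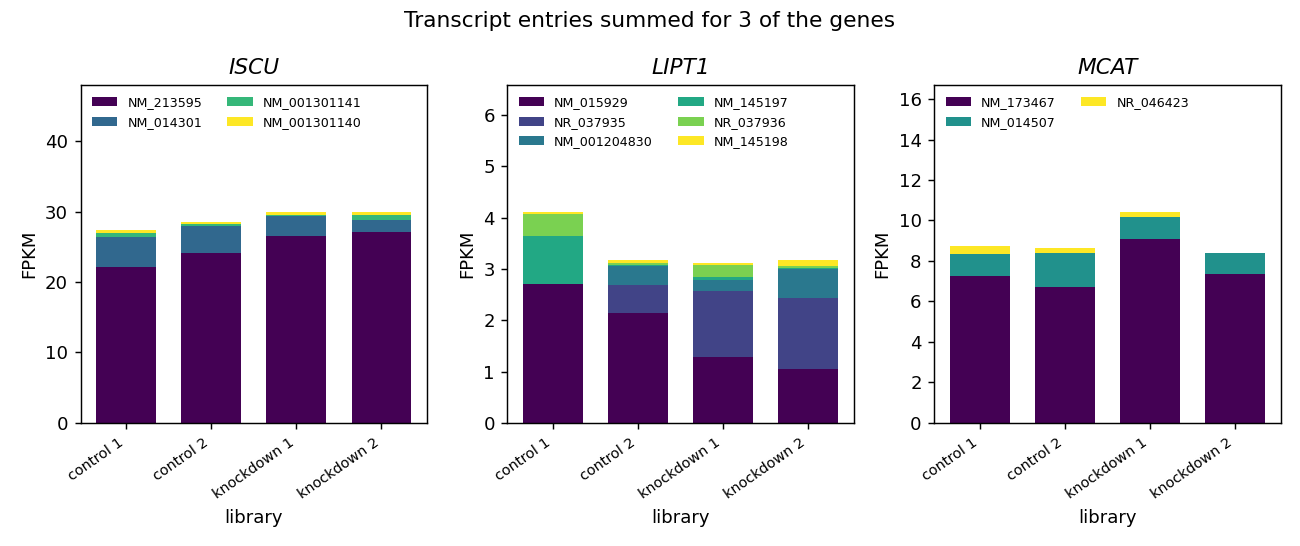
FPKM of each transcript entry of ISCU, LIPT1 and MCAT, stacked so that the bar height is the gene sum in that library. NM_014301 of ISCU is thinner in the knockdown bars (2.76 and 1.75 FPKM), and NR_037935 of LIPT1 is thicker (1.28 and 1.38 FPKM).

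Several members have another gene beside or across them. In GENCODE 44, LIAS starts 73 bases from RPL9, NFS1 83 bases from ROMO1, LYRM4 94 bases from FARS2 and LIPT1 9 bases from TSGA10, each on the opposite strand. RPL9, a ribosomal protein gene, changed by -0.12 (limma adjusted p = 0.256), ROMO1, a mitochondrial membrane protein gene, by 0.25 (0.0791) and FARS2 by -0.049 (0.684) on the log2 scale, none past the threshold. TSGA10 was below 1 FPKM in every library and was not tested. OXSM overlaps NGLY1, LIPT1 overlaps MITD1 and NFS1 overlaps ROMO1 on the opposite strand. Whether counting used the strand is not given in the sources used here, so reads of such pairs may not be told apart. NDUFAB1, MCAT, MECR and ISCU had no named coding or long noncoding gene of either kind.

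Other genes of mitochondrial fatty acid synthesis were read next, to see whether genes acting on the carrier protein moved with it. Of 4 genes tested, 2 were lower, none was higher and 2 did not pass, beside 9.99% lower and 10.9% higher of all tested genes. AASDHPPT, the enzyme that attaches the phosphopantetheine arm to carrier proteins, was at 37.9 and 37.7 FPKM in the controls against 27.5 and 27.1 FPKM in the knockdowns. It fell by 0.45 on the log2 scale (standard error 0.056, limma adjusted p = 0.00387), which left 72.3% of the control level, and the groups did not overlap. CBR4, a subunit of the ketoacyl reductase, was at 6.92 and 7.22 FPKM in the controls against 4.88 and 5.48 FPKM in the knockdowns. It fell by 0.39 (standard error 0.082, limma adjusted p = 0.0201). Its call was lost without control 2 and without knockdown 1. HSD17B8, the other subunit of that reductase, was lowly expressed and changed by -0.17 (limma adjusted p = 0.388). ACSF3, which makes malonyl-CoA in mitochondria, changed by 0.069 (limma adjusted p = 0.562). HTD2 of this pathway was not analysed here. The promoter window of AASDHPPT held none of the searched motifs and that of CBR4 held an NRF1 match.

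The proteins that carry or receive lipoate went both ways. Of 7 tested genes, 2 were higher, 1 was lower and 4 did not pass, beside 20.9% of all tested genes called. DLST, the lipoate-bearing subunit of oxoglutarate dehydrogenase, was at 26.6 and 26.9 FPKM in the controls against 34.6 and 35.97 FPKM in the knockdowns (log2 fold change 0.39, standard error 0.058, limma adjusted p = 0.00667). PDHX, the lipoate-bearing binding protein of pyruvate dehydrogenase, was higher by 0.22 (limma adjusted p = 0.0468), a call lost in each fit that left out a library. With all libraries kept, the PDHX call was also lost with no filter, without the trend and under either scaling. DLAT, the acetyltransferase of pyruvate dehydrogenase, was lower, at 37.4 and 34.4 FPKM in the controls against 29.1 and 29.3 FPKM in the knockdowns (-0.29, standard error 0.064, limma adjusted p = 0.0231). The DLAT call held only without control 2 among the fits that left out a library, and that of DLST was lost without knockdown 2. GCSH, the glycine cleavage protein on which lipoate is made, changed by -0.028 (limma adjusted p = 0.812), and LIPT2, which acts before LIAS, was at 1.46 and 1.57 FPKM in the controls against 0.607 and 1.05 FPKM in the knockdowns (-0.47, limma adjusted p = 0.0655).

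Mitochondrial iron-sulfur assembly, beyond NFS1, LYRM4 and ISCU, showed 1 call among 17 tested genes. FDXR, the reductase that feeds electrons to ferredoxin for cluster assembly, was at 38.5 and 33.1 FPKM in the controls against 28.6 FPKM in both knockdowns (-0.31, standard error 0.080, limma adjusted p = 0.0377). Control 1 was the highest, and the FDXR call held only without control 2 among the fits that left out a library. Calls in the list numbered 2 under either scaling and without control 2, and 0 with no filter, without the trend and when any other library was left out. The largest FDXR entry, the coding NM_024417, was at 16.96 and 14.2 FPKM in the controls against 14.6 and 14.4 FPKM in the knockdowns. These groups overlapped, and its log2 fold change was -0.091. The noncoding FDXR entry NR_047576 was lower in both knockdowns (-0.59), so the lower gene sum does not show a fall of the main coding entry. The median log2 fold change of the mitochondrial assembly list was 0.035. Of 13 tested genes in the list of cytosolic assembly, 2 were lower and 1 was higher, beside 20.9% of all tested genes called. CIAO1, which hands clusters to target proteins, fell from 29.0 and 27.8 FPKM to 20.7 and 22.3 FPKM (-0.39, standard error 0.065, limma adjusted p = 0.00956), a call lost without knockdown 1. For GLRX3, a cytosolic glutaredoxin, the larger entry NM_006541 was at 70.8 and 66.3 FPKM in the controls against 65.3 and 65.6 FPKM in the knockdowns. The smaller entry NM_001199868 was at 19.3 and 21.1 FPKM against 11.9 and 11.3 FPKM. As a gene sum GLRX3 was lower by -0.20 (limma adjusted p = 0.0435). CISD2, an iron-sulfur protein of outer membranes and not an assembly factor, was higher by 0.25 (limma adjusted p = 0.0443). With all libraries kept, both calls were lost with no filter and without the trend, and that of CISD2 with columns scaled to one sum. Both of these calls were lost in each fit that left out a library.

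Of 11 tested genes for LYR motif proteins, the family to which LYRM4 belongs, 1 was lower and none was higher. LYRM7, an assembly factor of respiratory complex III, was at 11.4 and 11.3 FPKM in the controls against 8.78 and 9.43 FPKM in the knockdowns (-0.29, limma adjusted p = 0.0298). NDUFA6 and NDUFB9, the LYR subunits that hold the carrier protein in complex I, changed by 0.0059 and -0.12 (limma adjusted p = 0.966 and 0.26), and NDUFB9 was called lower with columns scaled to one sum. LYRM9, another LYR motif gene, was at 0.901 and 0.846 FPKM in the controls against 1.82 and 1.32 FPKM in the knockdowns (0.45, limma adjusted p = 0.0576), and it was called higher with columns scaled to one sum and without the trend. Calls in the LYR list numbered 3 with columns scaled to one sum, 2 without the trend, and 0 with no filter or with any library left out. Of 11 tested genes for mitochondrial proteins that contain iron-sulfur clusters, 1 was lower, FECH, the ferrochelatase of heme synthesis (-0.26, limma adjusted p = 0.0435). The median of that list was -0.15, and in 7 of its 11 genes the knockdowns lay below the controls without overlap, in 4 the groups overlapped and in none were the knockdowns higher, beside 30.5% lower and 34.3% higher of all tested genes. Calls in it numbered 3 under median-ratio scaling and 5 with columns scaled to one sum, and 0 with no filter, without the trend, and without control 1 or either knockdown. The LYRM7 and FECH calls were lost in each fit that left out a library. ALAS2, another heme gene, was among the erythroid markers called lower.

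Since NDUFAB1 is also a subunit of complex I, it was set beside the other 36 nuclear subunit genes of that complex. Among all 37 it ranked 12 by mean level in the control and 29 in the knockdown. The ratio of NDUFAB1 to the median of the other subunits was 1.33 and 1.53 in the controls against 0.510 and 0.521 in the knockdowns. The other subunits had log2 fold changes from -0.37 to 0.45 with a median of -0.081, and 2 of them were called lower and none higher. The highest value was that of NDUFA3, whose control libraries lay far apart. It was at 8.26 and 4.24 FPKM in the controls against 9.23 and 7.89 FPKM in the knockdowns, with overlap. The 2 called lower were NDUFB5, from 76.7 and 72.7 FPKM to 56.4 and 58.6 FPKM (-0.37, limma adjusted p = 0.00841), and NDUFS4, from 40.5 and 38.0 FPKM to 32.0 and 28.6 FPKM (-0.36, 0.0184), both accessory subunits. Without regard to the test, the knockdowns lay below the controls without overlap in 16 of the 36 and above them in 2 (NDUFA11 and NDUFC2), beside 30.5% lower and 34.3% higher of all tested genes. Called subunits numbered 4 under median-ratio scaling and 10 with columns scaled to one sum, all of them lower. The calls gained without control 1 were higher (NDUFA3 and NDUFA11), and those gained without control 2 were lower. The calls of NDUFB5 and NDUFS4 were lost without knockdown 2, and that of NDUFB5 also without knockdown 1. Complex I shares 2 genes with the LYR list and 5 with the list of iron-sulfur proteins.

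**Figure D3:**
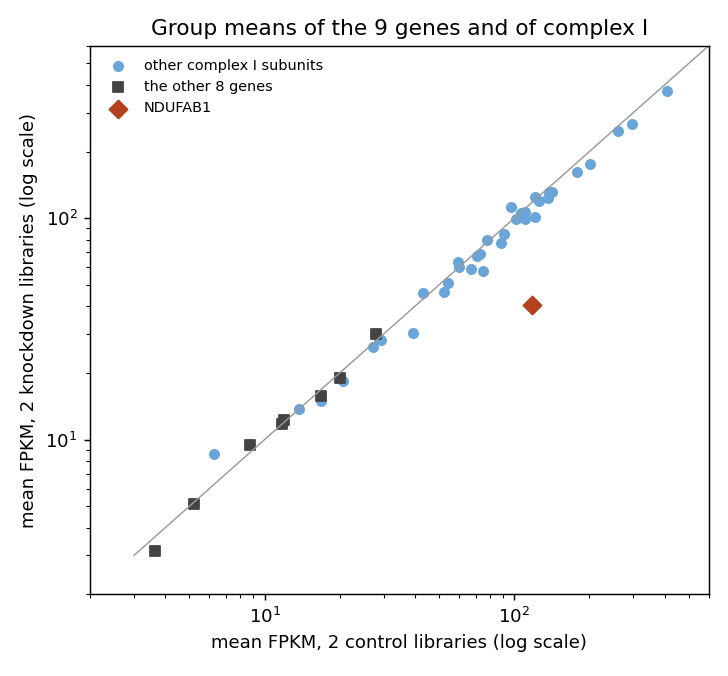
Mean FPKM in the 2 knockdown libraries against mean FPKM in the 2 control libraries (both axes logarithmic), with the line of equal levels. NDUFAB1 lies far under the line, at 117 FPKM in the control and 40.4 FPKM in the knockdown, while the other 36 complex I subunits and the other 8 genes lie near it.

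Over all these lists, with each gene counted once, 92 genes were tested, of which 10 were lower, 3 were higher and 79 did not pass. The share called was 14.1%, beside 20.9% of all tested genes, and 9.99% of all tested genes were called lower and 10.9% higher. The median log2 fold change was -0.063. The lowest value among these 92 genes was -0.47 (LIPT2), beside -1.52 for NDUFAB1. LIPT2 was at 1.57 FPKM or less in every library, where log2(FPKM + 1) understates changes. In mean FPKM, 54.8% of the control level of LIPT2 remained, beside 34.4% for NDUFAB1. The LIPT2 value was larger in size with a pseudocount of 0.1. It was smaller without knockdown 1, where it was not the lowest of the listed genes. Only AASDHPPT was called in each of the 10 alternatives at gene level, and when transcripts were tested in place of genes its single transcript missed the threshold.

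**Figure D4:**
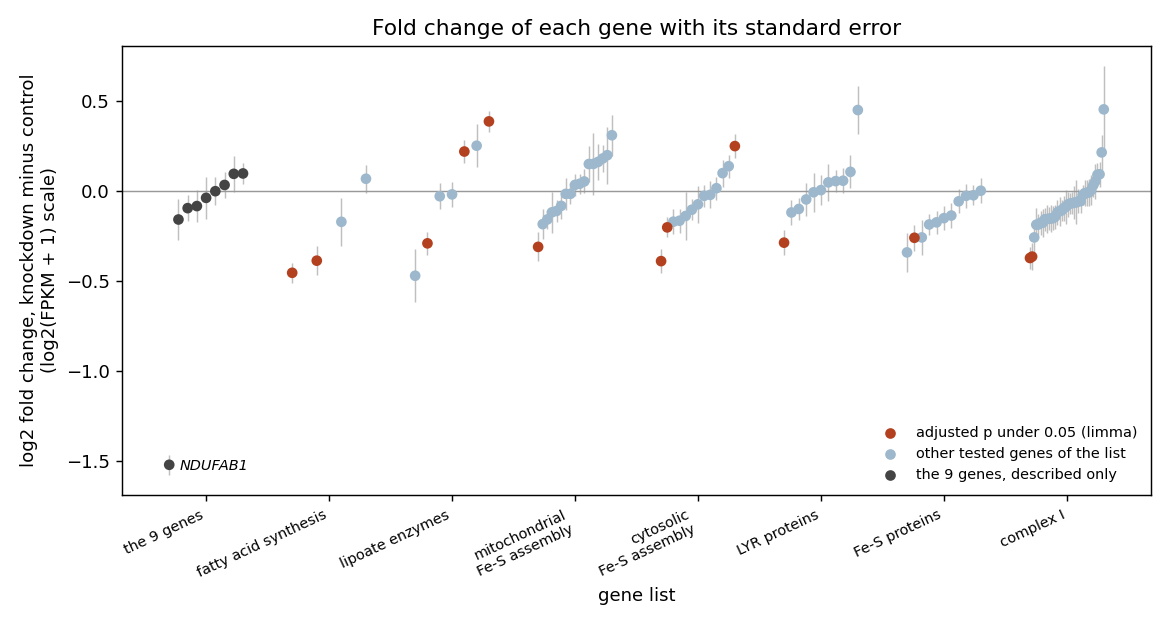
Log2 fold change of each tested gene (knockdown minus control, log2(FPKM + 1) scale) with its standard error, by gene list. The 9 genes are dark grey, and listed genes with an adjusted p under 0.05 are red. NDUFAB1 at -1.52 lies apart from the listed genes, which run from -0.47 to 0.45. This scale understates changes of low genes such as LIPT2 and LYRM9.

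The genes with the profile nearest to NDUFAB1 over the 4 libraries were sought among 5439 other genes whose mean reached 10 FPKM, by the Euclidean distance between log2(FPKM + 1) values centred on the gene mean. Among the nearest were SAMSN1 (distance 0.255), SLC2A3, a glucose transporter (0.258), CHCHD4, an oxidoreductase of mitochondrial protein import (0.315) and GALM (0.317). With 2 groups of 2 libraries this measure reflects mainly the size of the group difference. The log2 fold changes of these 4 genes ran from -1.35 for CHCHD4 to -1.21 for GALM, each smaller in size than that of NDUFAB1.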

How the data were processed

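Per the labels, total RNA was the input for Illumina TruSeq libraries. The authors filtered reads, mapped them with HISAT2 2.0.5 to hg38 per the submitters' processing notes, and deposited FPKM values for 29265 RefSeq transcripts with a column per library. The quantifier and annotation release are not given in the sources used here. FPKM values hold no counts, so depth, counting intervals and count tests could not be had, although the study used DESeq2.

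Entries without a value (183) or a symbol (164, with 0.25% of FPKM) were dropped, and 28918 transcripts were summed to 16504 symbols. Genes whose mean reached 1 FPKM were fitted as log2(FPKM + 1), which understates changes of low genes, in limma 3.58.1 (R 4.3.3), with a prior variance that follows the mean level, 2-sided p-values, Benjamini-Hochberg adjustment over all genes and no replicate block. The fit was tested on simulated data.

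Members and lists were chosen with earlier results of these data known. Lists were written from general knowledge. Named were the members, CEBPG, list genes with an adjusted p under 0.05 (at most the 4 highest and 4 lowest), and, where none passed, the extremes. Head-to-head neighbours (starts within 1000 bases) and the 5 nearest profiles were also named, 1 of which is not reported here. HSD17B8, ACSF3, GCSH, LIPT2, NDUFA6 and NDUFB9 were added for their roles after values were seen. LYRM9, NDUFA3, NDUFA11, NDUFC2, FDX2, SLC25A28 and the named markers were added for their values, also after values were seen. Promoter windows were from RefSeq (GRCh38.p14), and the printed stretches were equal to hg38.

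Alternatives were a pseudocount of 0.1, no filter, a replicate block, 2 scalings, no trend, each library left out, and transcripts.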

Additional observations from a re-analysis of the deposited data

How the results depend on the processing

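The log2 fold change of NDUFAB1 was -1.54 with a pseudocount of 0.1, after median-ratio scaling and after scaling columns to one sum, which moved it by more than its small replicate SD, and it ran from -1.53 to -1.51 when each library was left out. Leaving out a library turned the sign of the small values of MCAT, OXSM, MECR, NFS1 and LYRM4 in at least 1 of the 4 fits. The number of genes called over the whole table (2288) was 882 with no filter, where 16504 genes were tested, 25 for transcripts in place of genes (3213 at an unadjusted p under 0.05 in limma), and 825 to 1925 when a library was left out, the lowest without knockdown 1 (825) and knockdown 2 (838). The number of called genes in the pathway lists (13) was 4 with no filter, 22 with columns scaled to one sum, and 3 to 10 when a library was left out. It was 8 without control 1 and 3 without either knockdown library. AASDHPPT was called in each of these fits at gene level, and AASDHPPT, CIAO1, DLST and NDUFB5 in the 6 that kept all libraries. The cause of the other losses was not tested.

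The labels tie libraries of equal replicate number to no shared culture or day, and across genes their deviations from the group means had a correlation of 0.101. With the replicate block, 3440 genes were called over the whole table and 30 in the pathway lists, among them the 13 called without it. Called complex I subunits then numbered 13 in place of 2, and among them NDUFA3 (0.45) and NDUFA11 (0.21) were higher. Called iron-sulfur proteins numbered 5 in place of 1 and called mitochondrial assembly genes 4 in place of 1. Of these assembly genes, FDX2 (0.20) and SLC25A28 (0.31) were higher. Called LYR genes numbered 3 in place of 1 and called lipoate genes 4 in place of 3. LIPT2 and NDUFB9 gained a call as lower and LYRM9 as higher. The counts for fatty acid synthesis (2) and cytosolic assembly (3) were equal with and without the block.

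Read depth is unknown, so the error of low entries such as those of LIPT1 could not be set against counting error.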
